A study of Mus musculus with 15 samples.

Results

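The 8 imprinted genes examined were Mest, Peg10, Sgce, Plagl1, Cdkn1c, Phlda2, Peg13 and Impact. They are 8 of the 46078 genes in a table of RNA-sequencing read counts from the mouse melanoma line B16-F10. Each was found by matching its Ensembl identifier to its symbol in the GENCODE M21 annotation. The genes were chosen with earlier results of these data known, among them higher Mest, Peg10 and Sgce after GSK126. The values that decided the choice are not recorded, and the levels after GSK126 and DMSO are treated here as those used. The difference between GSK126 and DMSO is therefore given for these genes as a description without a test. All 8 passed the filter on low counts, but Cdkn1c reached the filter level of 0.234 CPM (read counts scaled to the library total) in only 12 of the 15 libraries, and Phlda2 in 10.

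An imprinted gene is transcribed mainly from the chromosome inherited from one parent. The choice is set in the germ line by DNA methylation of control regions rich in CpG dinucleotides, and is kept after fertilisation by factors such as ZFP57 and TRIM28. At some loci, histone H3 lysine 27 trimethylation, written by Polycomb repressive complex 2 (PRC2) through its catalytic subunit EZH2, adds to the silencing. Many imprinted genes act on growth, placental development or the cell cycle. Mest, Peg10, Sgce, Plagl1, Peg13 and Impact are known as paternally expressed, and Cdkn1c and Phlda2 as maternally expressed. Gene counts do not separate the parental alleles, so the values below are total transcript levels of both.

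The study had 5 groups of 3 libraries, all from B16-F10 cells. One arm compared the solvent DMSO with 2 µM GSK126, a small molecule that inhibits EZH2, and with 2 µM DZNep, which inhibits S-adenosylhomocysteine hydrolase and so affects methylation more widely. The other arm compared a scrambled control (scr) with a knockdown of Ezh2 by small interfering RNA (siEzh2). Treatment times are not given in the labels, nor whether replicates were separate cultures, so p-values measure the spread between these libraries, which may be technical. All results come from a single cell line, and in such bulk RNA a lower share of expressing cells and less RNA per cell cannot be told apart.

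Library totals ran from 33299524 to 64545747 counts, so that 1 count was worth 0.0154 to 0.0306 CPM, and the coefficient of variation between replicates was 6.4% across genes. Ezh2 itself was at 219 ± 6.59 CPM (SD, n = 3) in scr and 39.6 ± 1.87 CPM in siEzh2, 5.53-fold lower (edgeR quasi-likelihood test, adjusted p = 1.22e-17). All 8 melanocyte markers, such as Pmel and Tyr, were detected, with a summed level of 23900 to 36800 CPM per library. Markers of other cell types summed to at most 18.1 CPM for fibroblasts, 11.6 for epithelia, 1.02 for blood cells and 0.295 for endothelia, and Cd3e, Hba-a1, Cdh5, Krt5 and Krt14 were at 0. The melanocyte sum was lowest in scr, at 23900 to 25500 CPM, against 33000 to 36800 in siEzh2 and 32600 to 34100 in DMSO. All 8 melanocyte markers were higher in siEzh2 than in scr, and in scr 6 were lower and 1 higher than in DMSO. In GSK126 the sum was 28100 to 28300 CPM, and 3 of the markers were lower than in DMSO, none higher. The part of these shifts in the results for siEzh2 and GSK126 was not tested. Among all genes tested, 26.1% had an adjusted p under 0.05 (edgeR) with siEzh2 against scr. The share was 25.9% in scr against DMSO and 12.7% with GSK126. GSK126 replicate 1 carries the library number 3 in its name, apart from the numbers 13 to 20 of the other libraries in the compound arm.

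The promoters of Mest and Plagl1 are shown first because these genes lie under classical imprinting control regions, where CpG dinucleotides carry the parental mark. RefSeq (GRCm38.p6) promoter windows were found for 3 of the 8 genes, Mest, Plagl1 and Phlda2. Each line below is the 250 bases before a transcription start, on the strand of the gene and 5′ to 3′, with CpG dinucleotides in capitals.

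Mest, upstream start, chr6:30733256-30733505, plus strand: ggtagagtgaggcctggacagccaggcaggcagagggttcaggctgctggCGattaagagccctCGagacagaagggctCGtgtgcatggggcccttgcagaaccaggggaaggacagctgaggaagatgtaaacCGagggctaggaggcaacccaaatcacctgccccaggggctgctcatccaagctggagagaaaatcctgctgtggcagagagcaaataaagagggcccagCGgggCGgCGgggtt

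Mest, downstream start, chr6:30737800-30738049, plus strand: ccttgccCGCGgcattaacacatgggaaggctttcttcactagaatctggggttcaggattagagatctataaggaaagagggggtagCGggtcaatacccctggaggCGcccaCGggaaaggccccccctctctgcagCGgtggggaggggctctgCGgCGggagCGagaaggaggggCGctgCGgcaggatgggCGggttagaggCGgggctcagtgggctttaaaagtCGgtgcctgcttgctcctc

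Plagl1, chr10:13090582-13090831, plus strand: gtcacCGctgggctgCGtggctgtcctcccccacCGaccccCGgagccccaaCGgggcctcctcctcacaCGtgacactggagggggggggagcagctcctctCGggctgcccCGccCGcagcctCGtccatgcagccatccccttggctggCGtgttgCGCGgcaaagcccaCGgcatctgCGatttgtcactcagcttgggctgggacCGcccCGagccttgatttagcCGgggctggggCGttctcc

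RefSeq gave 3 Mest windows, of which the third started 3 bases after the downstream one, also held 14 CpG dinucleotides and 2 TGCCGC matches, and is not shown. The 2 Mest windows shown differed in CpG content. The upstream window held 7 CpG dinucleotides, a count that 46.3% of all 32817 mouse promoter windows of this length reached or passed. The downstream window held 14, reached by 29.3% of windows, and the Plagl1 window held 19, reached by 19.7%. The Phlda2 window (chr7:143502525-143502774, minus strand) held 21, reached by 16.3%. The median over all windows was 6. The letters TGCCGC, the core of the methylated motif bound by ZFP57, were searched on both strands. They occurred 2 times in the downstream Mest window, starting 242 and 67 bases before the start, and 1 time in the Plagl1 window, 90 bases before the start. They did not occur in the upstream Mest window or in the Phlda2 window, and 8.68% of all windows held them. A match is a description of the sequence and not a measured site.

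The 8 genes covered a wide range of levels in melanoma cells given the solvent alone. Per kilobase of exon in DMSO, Plagl1, a zinc-finger transcription factor, was at 105 ± 8.87 CPM per kb (SD, n = 3). Peg10, a gene of retrotransposon origin needed in the placenta, was at 18.8 ± 2.39 CPM per kb, and Sgce, which codes for epsilon-sarcoglycan, a membrane glycoprotein, at 14.6 ± 0.538. Impact, a regulator of the kinase GCN2, was at 8.32 ± 0.741 CPM per kb and the non-coding RNA Peg13 at 5.97 ± 0.348. Mest, a member of the alpha/beta hydrolase family, was at 4.3 ± 0.378 CPM per kb. Phlda2, a pleckstrin-homology protein that limits placental growth, and Cdkn1c, the cyclin-dependent kinase inhibitor p57, were near the lower limit of detection, at 0.384 ± 0.102 and 0.175 ± 0.0127 CPM per kb.

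**Figure D1:**
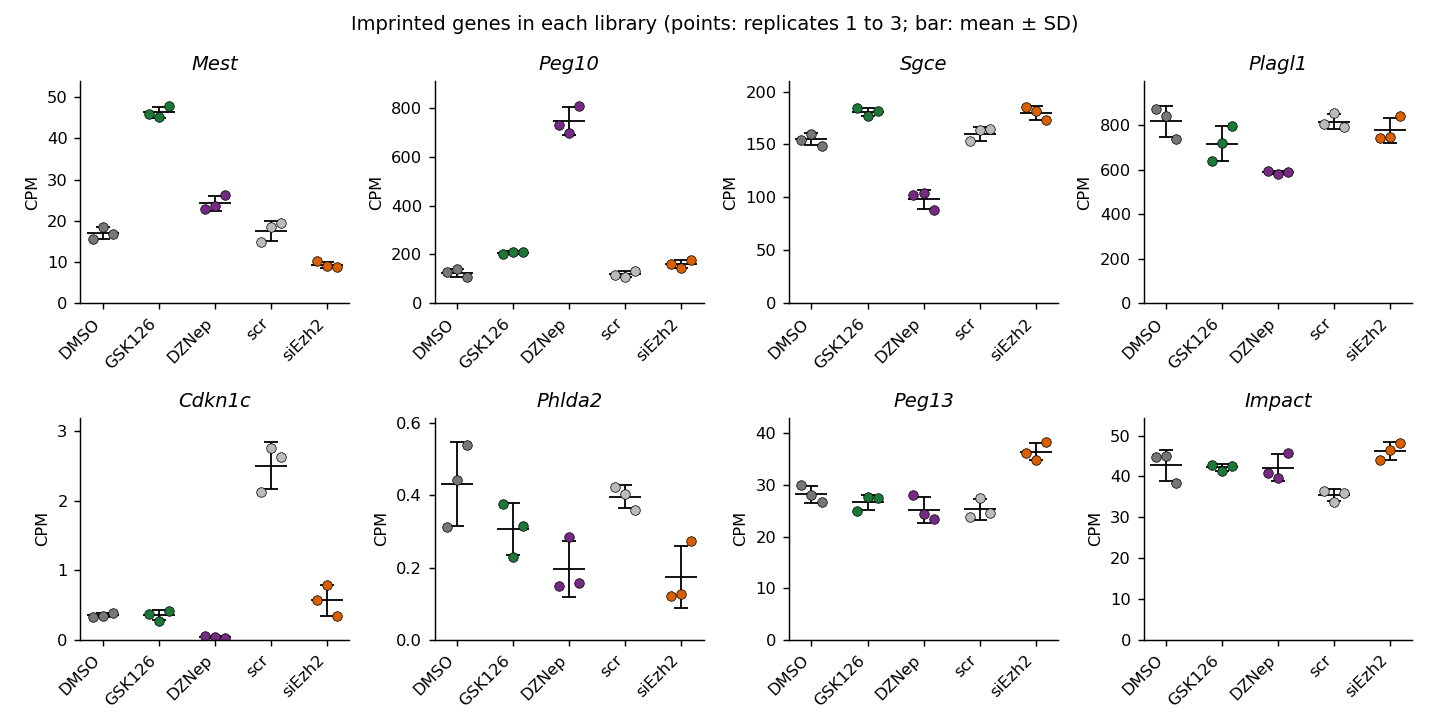
CPM (vertical axis, scaled separately for each gene and starting at 0) of the 8 imprinted genes in the 5 groups (horizontal axis). Points are the 3 libraries of a group and bars the mean ± SD; Mest is highest in GSK126 (46.3 CPM), Peg10 in DZNep (745 CPM) and Cdkn1c in scr (2.5 CPM).

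Across the 4 comparisons, no single direction held for the 8 genes. With GSK126, 3 of the 8 (Mest, Peg10 and Sgce) lay above DMSO in every library and the other 5 overlapped it. The choice of the genes is taken to rest on this contrast, so nothing is read from that count. Of the 15152 genes tested, 12.7% were called in it (7.15% higher, 5.54% lower), a measure unlike the lack of overlap. The share of all genes without overlap was not counted. With DZNep, 6 of the 8 were called, 2 higher and 4 lower, where 62.3% of all genes were called (31.2% higher, 31.0% lower), so their share was near that of the whole table. With siEzh2 against scr, 7 of the 8 were called, 4 higher and 3 lower, where 26.1% of all genes were called (13.2% higher, 12.9% lower). Set against DMSO in place of scr, siEzh2 had 5 of the 8 called, 3 higher and 2 lower, where 14.2% of all genes were called (6.41% higher, 7.76% lower). Between the 2 controls, scr against DMSO, 2 of the 8 were called, 1 higher and 1 lower, where 25.9% of all genes were (12.2% higher, 13.6% lower). The median log2 fold change of the 8 was -0.02 with GSK126, -0.32 with DZNep and 0.05 with siEzh2, and that of all genes tested was -0.01, 0.00 and -0.01. DZNep and GSK126 were measured against the same DMSO libraries, while siEzh2 and scr share no library with either. Those DMSO libraries are also taken to have been part of the choice of the 8 genes. The p-values of these genes and of their ratios in comparisons with DMSO are therefore not independent of that choice. This holds below for DZNep, scr and siEzh2 set against DMSO. Whether values of siEzh2 and scr also entered the choice is not recorded.

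**Figure D2:**
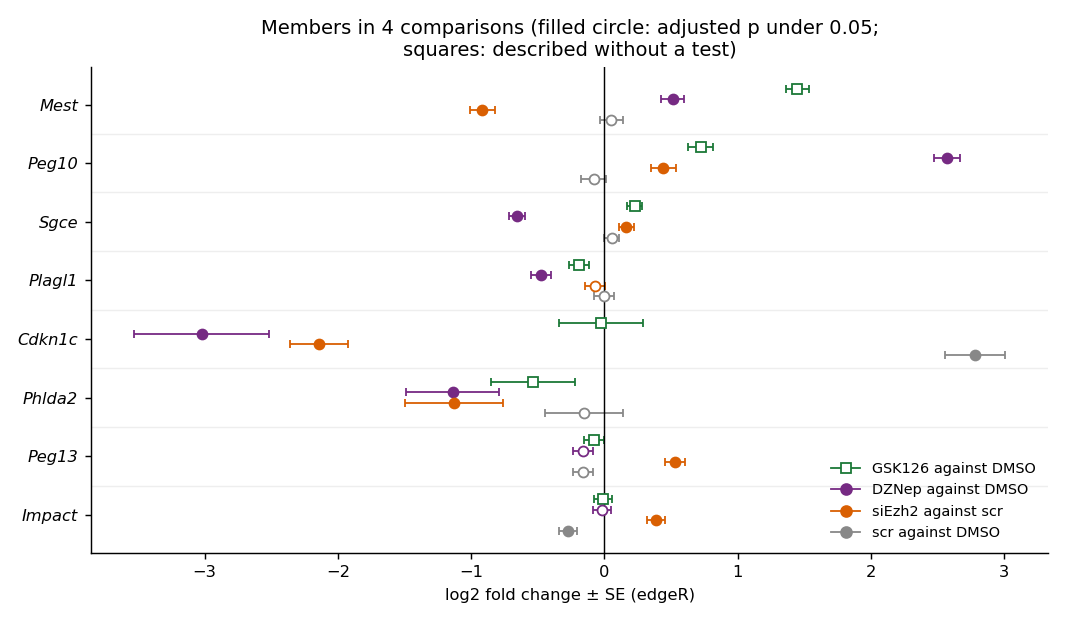
Log2 fold change with its standard error (horizontal axis) of each imprinted gene (vertical axis) in 4 comparisons, from edgeR. Squares mark GSK126 against DMSO, given without a test, and filled circles an adjusted p under 0.05 in the others; Mest is to the right with GSK126 (1.45) and to the left with siEzh2 (-0.92).

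Mest lies on chromosome 6 (GRCm38, 30723547 to 30748465, plus strand) and its level was higher with the EZH2 inhibitor and lower with the Ezh2 knockdown. Its 3 DMSO libraries were at 15.5, 18.5 and 16.9 CPM, and its 3 GSK126 libraries at 45.9, 45.2 and 47.9 CPM. DZNep libraries were at 22.9, 23.5 and 26.2 CPM. Every library of either compound was above every DMSO library, and all GSK126 libraries were above all DZNep libraries. In the knockdown arm, scr libraries were at 14.9, 18.5 and 19.4 CPM and siEzh2 libraries at 10.2, 9.07 and 8.82 CPM. Here every knockdown library was below every control library. Mest was thus 2.73-fold higher with GSK126 (log2 1.45 ± 0.09, SE) and 1.43-fold higher with DZNep (log2 0.51 ± 0.09, edgeR adjusted p = 3.93e-05). With siEzh2 it fell 1.89-fold (log2 -0.92 ± 0.09, edgeR adjusted p = 4.72e-07). The scr and DMSO libraries overlapped (log2 0.05, edgeR adjusted p = 0.714). Measured against DMSO, the knockdown was 1.82-fold lower (edgeR adjusted p = 4.25e-06). The p-values against DMSO are not independent of the choice of the genes.

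The 2 nearest tested genes were Copg2 and Cep41. Copg2, which codes for a coat protein of transport vesicles, runs on the opposite strand and overlaps the end of Mest by 912 bases. Its level was 136 ± 10.5 CPM in DMSO, 136 ± 2.69 in GSK126, 107 ± 3.04 in DZNep, 121 ± 7.15 in scr and 142 ± 4.56 in siEzh2 (SD, n = 3). It fell 1.27-fold with DZNep (edgeR adjusted p = 2.59e-05) and rose 1.17-fold with siEzh2 (edgeR adjusted p = 0.00501), in each case opposite to Mest. It was also lower in scr than in DMSO, by 0.17 on the log2 scale (edgeR adjusted p = 0.0364), and siEzh2 set against DMSO gave 0.06 (edgeR adjusted p = 0.507). Whether the counts used strand is not given in the sources used here, so reads in the shared 912 bases cannot be assigned to either gene with certainty. Mir335, a microRNA gene inside Mest, had 3 counts over all 15 libraries. Cep41, a centrosomal gene 29.8 kb away, fell 3.05-fold with DZNep (edgeR adjusted p = 1.63e-12) and 1.19-fold with siEzh2 (edgeR adjusted p = 0.0135). In scr it was 0.37 above DMSO on the log2 scale (edgeR adjusted p = 0.000636), and siEzh2 set against DMSO gave 0.12 (edgeR adjusted p = 0.295), so the sign for Cep41 turned with the control. Of the 9 tested neighbours of Mest, GSK126 changed 1, Plxna4 (log2 0.56). DZNep changed all 9, with 2 higher and 7 lower, and siEzh2 changed 5, with 2 higher and 3 lower, where 12.7%, 62.3% and 26.1% of all genes were called with GSK126, DZNep and siEzh2.

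The log2 ratio of Mest to Copg2, which cancels library size, was -3.0 ± 0.16 (SD, n = 3) in DMSO, -1.55 ± 0.02 in GSK126, -2.15 ± 0.11 in DZNep, -2.79 ± 0.29 in scr and -3.93 ± 0.14 in siEzh2. It was higher by 0.86 with DZNep and lower by 1.14 with siEzh2, without overlap between the groups (exact two-sided permutation p = 0.1 for each, the smallest that 3 against 3 allows).

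Peg10 and Sgce lie side by side on chromosome 6 and are transcribed away from each other, with 98 bases between the gene ends (Sgce 4674350 to 4747207, minus strand; Peg10 4747306 to 4760517, plus strand). Both were higher with GSK126 and with siEzh2, and with DZNep they moved apart: Peg10 rose 5.95-fold and Sgce fell 1.58-fold. Peg10 libraries were at 127, 140 and 109 CPM in DMSO, 200, 211 and 210 in GSK126, and 731, 696 and 808 in DZNep. In the knockdown arm they were at 116, 109 and 131 CPM in scr and 160, 145 and 178 in siEzh2. In all 3 comparisons with their control, the treated libraries lay above the control libraries without overlap, and DZNep lay far above all other groups. Peg10 was 1.65-fold higher with GSK126 (log2 0.72 ± 0.09). It rose by log2 2.57 ± 0.10 with DZNep (edgeR adjusted p = 8.28e-13) and 1.36-fold with siEzh2 (log2 0.44 ± 0.09, edgeR adjusted p = 0.002). Scr and DMSO overlapped, and set against DMSO the siEzh2 value of Peg10 was 0.36 on the log2 scale (edgeR adjusted p = 0.0158).

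Sgce libraries were at 154, 160 and 149 CPM in DMSO, 184, 177 and 182 in GSK126, and 102, 104 and 88 in DZNep. They were at 153, 164 and 165 CPM in scr and 185, 182 and 173 in siEzh2. The DZNep libraries formed the lowest group, and GSK126 and siEzh2 overlapped each other at the top. Sgce was 1.17-fold higher with GSK126 (log2 0.23 ± 0.06) and fell by 0.66 ± 0.06 on the log2 scale with DZNep (edgeR adjusted p = 8.23e-09). Its rise with siEzh2 was 1.12-fold (log2 0.17 ± 0.06, edgeR adjusted p = 0.0414). That call was lost on leaving out scr replicate 1, 2 or 3 or siEzh2 replicate 1 or 2 (edgeR adjusted p = 0.0577 to 0.131), with plain library totals (edgeR adjusted p = 0.0538) and without the count filter (edgeR adjusted p = 0.0594). Set against DMSO, its siEzh2 value was 0.22 (edgeR adjusted p = 0.0156, not independent of the choice of the genes).

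The ratio of Peg10 to Sgce, chosen after the values were seen, was -0.31 ± 0.13 on the log2 scale in DMSO (SD, n = 3), 0.19 ± 0.07 in GSK126 and 2.93 ± 0.24 in DZNep. In scr it was -0.44 ± 0.13 and in siEzh2 -0.17 ± 0.19. The difference was 3.24 with DZNep (exact two-sided permutation p = 0.1, the smallest possible) and 0.27 with siEzh2 (exact two-sided permutation p = 0.2). Because the ratio was chosen on these values, its p-values are a description and nothing is read from them.

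Sgce and Peg10 differed in how they stood to the genes next to them. Casd1, a sialic acid acetyltransferase gene 31 kb from Sgce and 104 kb from Peg10, fell by 0.63 ± 0.05 on the log2 scale with DZNep (edgeR adjusted p = 1.05e-09) and rose by 0.15 with siEzh2 (edgeR adjusted p = 0.031). Set against DMSO, its siEzh2 value was 0.098 (edgeR adjusted p = 0.19). Against Casd1, the Sgce ratio differed by -0.03 with DZNep (exact two-sided permutation p = 1) and by 0.02 with siEzh2 (exact two-sided permutation p = 0.9), and the groups overlapped. With GSK126 the Sgce ratio to Casd1 was 0.18 higher, without overlap and given without a test. In scr it was 0.10 above DMSO, also without overlap (exact two-sided permutation p = 0.1). The Peg10 ratio to Casd1 was higher by 3.20 with DZNep and by 0.29 with siEzh2, without overlap (exact two-sided permutation p = 0.1 for each, the smallest possible). With GSK126 the Peg10 ratio was 0.69 higher, also without overlap. On the other side of Peg10, Ppp1r9a, which codes for the actin-binding protein neurabin, fell by 1.39 ± 0.11 on the log2 scale with DZNep (edgeR adjusted p = 2.19e-08). Col1a2, a collagen gene 132.8 kb from Sgce, was 0.91 ± 0.11 higher on the log2 scale with GSK126 and 0.91 higher with DZNep (edgeR adjusted p = 3.53e-07). It was also 1.60 higher in scr than in DMSO (edgeR adjusted p = 8.11e-10). Of the 7 tested neighbours of Peg10 other than Sgce, GSK126 changed 1, DZNep changed 6 (2 higher, 4 lower), and siEzh2 changed 4 (3 higher, 1 lower), beside the same shares of all genes.

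**Figure D3:**
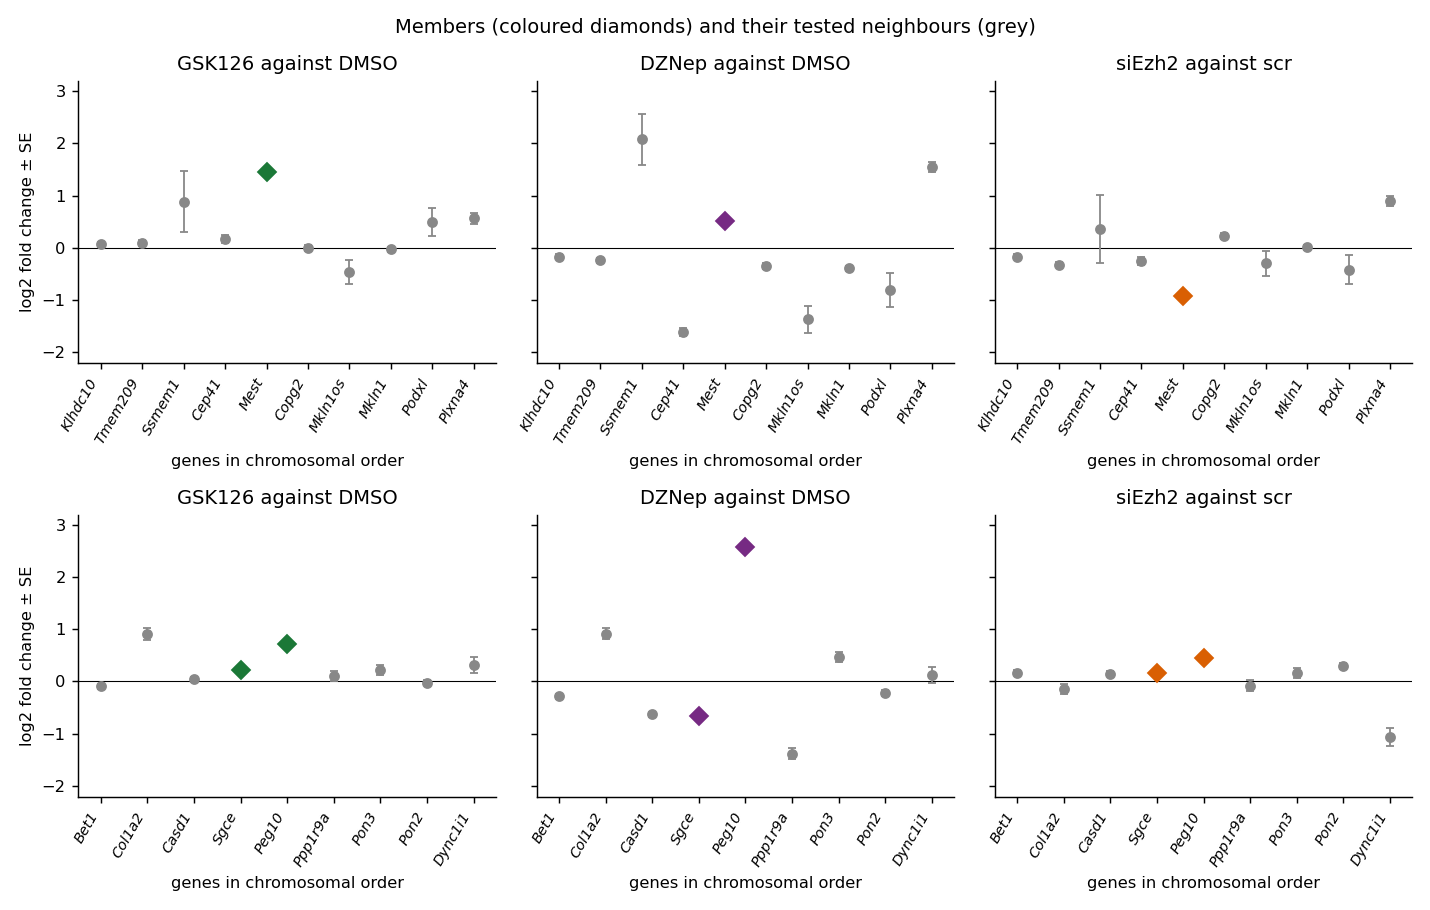
Log2 fold change with its standard error (vertical axis) of Mest (upper row) and of Peg10 with Sgce (lower row) as coloured diamonds among their tested neighbours in grey, placed in chromosomal order (horizontal axis, not to distance). Columns are GSK126, DZNep and siEzh2 against their controls; with DZNep, Peg10 stands at 2.57 while Sgce, Casd1 and Ppp1r9a lie below 0.

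Plagl1 (chromosome 10, 13060504 to 13131694, plus strand), which acts on cell cycle arrest and apoptosis and regulates other imprinted genes, fell with DZNep. Its libraries were at 872, 844 and 740 CPM in DMSO, 638, 719 and 797 in GSK126, and 595, 580 and 592 in DZNep. They were at 805, 855 and 791 CPM in scr and 745, 747 and 841 in siEzh2. Only the DZNep libraries lay apart from the rest, 1.39-fold below DMSO (log2 -0.48 ± 0.07, edgeR adjusted p = 1.38e-05). With GSK126 the log2 difference was -0.19 ± 0.07, and the groups overlapped. With siEzh2 it was -0.07 (edgeR adjusted p = 0.525). Of the 8 tested neighbours of Plagl1, DZNep lowered 4 and raised 1, beside 62.3% of all genes called; Phactr2, a phosphatase and actin regulator 76 kb away, fell by 0.74 on the log2 scale (edgeR adjusted p = 4.54e-09), and Ltv1, 46.4 kb away, was at -0.09 (edgeR adjusted p = 0.396).

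Cdkn1c and Phlda2 lie 40.5 kb apart on the minus strand of chromosome 7, in a maternally expressed cluster (Cdkn1c 143458339 to 143461050, Phlda2 143501545 to 143503150). Both were lower in DZNep than in DMSO and lower in siEzh2 than in scr, at levels where few reads were counted, and the second direction did not hold for Cdkn1c with DMSO as control. Cdkn1c libraries were at 0.335, 0.349 and 0.385 CPM in DMSO and 0.375, 0.276 and 0.413 in GSK126. DZNep libraries held 2, 2 and 1 counts, or 0.059, 0.0477 and 0.0226 CPM. Scr libraries stood alone at 2.12, 2.75 and 2.63 CPM, and siEzh2 libraries were at 0.581, 0.785 and 0.343 CPM. The fall with DZNep was 8.13-fold as fitted (log2 -3.02 ± 0.50, edgeR adjusted p = 3.04e-05), from 54 counts in DMSO to 5 in DZNep over 3 libraries each.

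With siEzh2, Cdkn1c was 4.41-fold lower than in scr (log2 -2.14 ± 0.22, edgeR adjusted p = 3.85e-07), but the scr libraries were themselves 6.88-fold above DMSO (log2 2.78 ± 0.23, edgeR adjusted p = 2.15e-08). Measured against DMSO instead, an alternative added after the values were seen, the knockdown was 1.56-fold higher (log2 0.64 ± 0.29, edgeR adjusted p = 0.147). The fall of Cdkn1c in the knockdown was therefore seen only with scr as control. Against DMSO the sign turned, but without a call, and the libraries of the groups overlapped. GSK126 and DMSO overlapped (log2 -0.03 ± 0.31). An annotated antisense gene, Gm44732, overlaps Cdkn1c and had no row in the table.

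Phlda2 libraries were at 0.311, 0.443 and 0.539 CPM in DMSO, 0.375, 0.23 and 0.316 in GSK126, and 0.148, 0.286 and 0.158 in DZNep. In the knockdown arm they were at 0.424, 0.403 and 0.36 CPM in scr and 0.122, 0.127 and 0.274 in siEzh2. No library held more than 35 counts. DZNep lay below DMSO and siEzh2 below scr without overlap, but each group overlapped the next in order of level. Phlda2 fell 2.2-fold with DZNep (log2 -1.14 ± 0.35, edgeR adjusted p = 0.00789) and 2.19-fold with siEzh2 (log2 -1.13 ± 0.37, edgeR adjusted p = 0.0292). Leaving out DMSO replicate 3 ended the call with DZNep (edgeR adjusted p = 0.0565). The call with siEzh2 was lost on leaving out scr replicate 1 or 2 or siEzh2 replicate 1 or 2 (edgeR adjusted p = 0.0652 to 0.118) and with DESeq2 (adjusted p = 0.0667). Set against DMSO, the siEzh2 value of Phlda2 was -1.28 (edgeR adjusted p = 0.0211, not independent of the choice of the genes).

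Slc22a18, a transporter gene between them and 2.2 kb from Phlda2, was lower in the same comparisons, by 0.81 on the log2 scale with DZNep (edgeR adjusted p = 1.51e-07) and by 0.31 with siEzh2 (edgeR adjusted p = 0.0102). It was also 0.51 lower with GSK126 (edgeR adjusted p = 0.000469) and 0.32 higher in scr than in DMSO (edgeR adjusted p = 0.00724). Set against DMSO, its siEzh2 value was 0.01 (edgeR adjusted p = 0.946). Nap1l4, a histone chaperone gene 10.4 kb from Phlda2 on the other side, was not called with any of the 3 (log2 0.02, 0.09 and -0.04). Kcnq1ot1, the paternal non-coding RNA that silences this cluster in cis, was not called either, with wide errors: its log2 fold change was 0.73 ± 0.42 with DZNep (edgeR adjusted p = 0.161) and -0.21 ± 0.41 with siEzh2 (edgeR adjusted p = 0.764).

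Peg13 (chromosome 15, 72805600 to 72810324, minus strand) is a non-coding RNA inside an intron of Trappc9, which is on the same strand. Its libraries were at 30, 28 and 26.7 CPM in DMSO, 24.9, 27.6 and 27.4 in GSK126, 28.1, 24.3 and 23.3 in DZNep, 23.7, 27.5 and 24.6 in scr, and 36.2, 34.8 and 38.2 in siEzh2. The siEzh2 libraries lay above all 12 others, which overlapped each other. Peg13 rose 1.44-fold with siEzh2 (log2 0.53 ± 0.07, edgeR adjusted p = 2.18e-05), and it was 0.37 ± 0.07 higher than DMSO on the log2 scale (edgeR adjusted p = 0.00212). With DZNep the log2 difference was -0.16 ± 0.08 (edgeR adjusted p = 0.066). It passed the threshold on leaving out DMSO replicate 3 (edgeR adjusted p = 0.0301) or DZNep replicate 1 (edgeR adjusted p = 0.0103), with plain library totals (edgeR adjusted p = 0.0446) and without the count filter (edgeR adjusted p = 0.0425). Its host Trappc9, a subunit of a membrane trafficking complex, fell by 0.17 on the log2 scale with siEzh2 (edgeR adjusted p = 0.0432) and by 0.57 with DZNep (edgeR adjusted p = 1.12e-07). In scr, Trappc9 was 0.25 above DMSO on the log2 scale (edgeR adjusted p = 0.00396), and siEzh2 set against DMSO gave 0.08 (edgeR adjusted p = 0.41), so its sign with siEzh2 turned with the control. Unspliced Trappc9 RNA could add reads to Peg13, and the share of such reads was not measured.

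Impact (chromosome 18, 12955852 to 12992950, plus strand) rose with siEzh2 when scr was the control. Its libraries were at 44.7, 45 and 38.3 CPM in DMSO, 42.7, 41.3 and 42.6 in GSK126, 40.8, 39.6 and 45.8 in DZNep, 36.5, 33.7 and 35.9 in scr, and 44, 46.6 and 48.2 in siEzh2. Scr was the group that stood apart, below the other 4. Impact was 1.31-fold higher in siEzh2 than in scr (log2 0.39 ± 0.07, edgeR adjusted p = 0.000211), and scr was 1.21-fold below DMSO (log2 -0.27 ± 0.07, edgeR adjusted p = 0.00541). Set against DMSO, the knockdown difference was 0.12 on the log2 scale (edgeR adjusted p = 0.257). The compounds gave -0.01 ± 0.07 for GSK126 and -0.02 for DZNep (edgeR adjusted p = 0.833). Osbpl1a, a lipid-binding protein gene 14 kb away, was higher by 0.25 on the log2 scale with siEzh2 (edgeR adjusted p = 0.00167), by 0.23 with GSK126 (edgeR adjusted p = 0.0065) and by 0.17 with DZNep (edgeR adjusted p = 0.00772).

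The 2 compounds were given at the same dose of 2 µM, and their values are set side by side as a description. Peg10 was 3.6-fold higher with DZNep than with GSK126 (log2 1.85 ± 0.09). Mest was 1.91-fold lower (log2 -0.94 ± 0.08), Sgce 1.84-fold lower (log2 -0.88 ± 0.06) and Plagl1 1.22-fold lower (log2 -0.29 ± 0.07). Cdkn1c was 7.99-fold lower as fitted (log2 -3.0 ± 0.52). No test is given here, because the GSK126 libraries, like those of DMSO, are taken to have been part of the choice of these genes. For the same reason, the effect of siEzh2 against scr less that of GSK126 against DMSO is given without a test; for Mest it was -2.37 on the log2 scale.

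Most of the other imprinted genes listed did not pass the filter on low counts, as was so for most genes in the table. Of 58 listed, 21 passed the filter, 36 had rows that did not pass, and 1 had no row. Over the whole table, 15152 of the 46078 genes passed. Among the 36, 23 were at 0 counts in all 15 libraries, including Peg3, Snrpn, Dlk1, H19 and Ndn, where 3 counts in a library would be 0.0462 to 0.0918 CPM. The other 13 reached at most 0.365 CPM, in Grb10. Reads in overlapping annotations can go uncounted, so a row at 0 states only what was counted.

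Among the 21 tested, GSK126 raised 1 and lowered 2, DZNep raised 4 and lowered 11, and siEzh2 raised 3 and lowered 4. These shares, 14.3%, 71.4% and 33.3%, stood beside 12.7%, 62.3% and 26.1% of all genes. The paternally expressed ones included Inpp5f, a phosphoinositide phosphatase gene, and Mcts2, a retrogene, which fell with DZNep by 0.95 (edgeR adjusted p = 2.75e-11) and 0.94 (edgeR adjusted p = 5.31e-09) on the log2 scale. Inpp5f was at 68.2 ± 4.76 CPM in DMSO and 35.3 ± 2.29 in DZNep (SD, n = 3). None of the 4 paternally expressed genes tested was called with siEzh2 by edgeR or DESeq2, and 0 had an unadjusted edgeR p under 0.05. Without the count filter, when every listed gene with any count was tested, 1 was called. Of the 14 maternally expressed genes tested, DZNep raised 3 and lowered 7. Ube3a, a ubiquitin ligase gene, fell by 0.91 on the log2 scale (edgeR adjusted p = 2.42e-10), and H13, which codes for signal peptide peptidase, rose by 0.35 (edgeR adjusted p = 2.6e-05). With siEzh2, 2 of these 14 rose and 3 fell, among them the tetraspanin gene Cd81, by 0.35 on the log2 scale (edgeR adjusted p = 8.93e-05). Set against DMSO, Cd81 was at -0.13 (edgeR adjusted p = 0.118) and 1 of the 14 was called, Igf2r. With scr as control, 3 of the 14 were called without scr replicate 2 or siEzh2 replicate 1 or 3. Copg2 and Ppp1r9a are on this list too and are described above as neighbours.

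**Figure D4:**
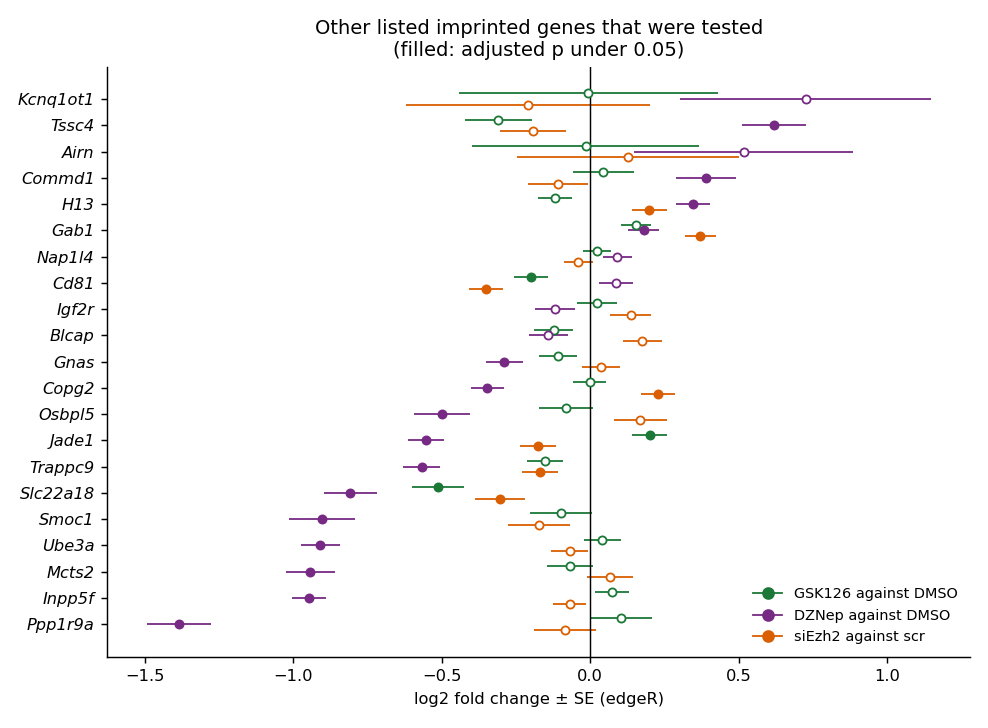
Log2 fold change with its standard error (horizontal axis) of the 21 other listed imprinted genes that were tested (vertical axis), ordered by their value with DZNep. Filled points have an adjusted p under 0.05 by edgeR; with DZNep 11 are lower and 4 higher, and with GSK126 2 are lower and 1 higher.

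The 3 tested genes whose imprint is known to depend on maternal H3K27 trimethylation were given separately. Gab1, an adaptor of growth factor receptors, rose by 0.37 on the log2 scale with siEzh2 (edgeR adjusted p = 2.13e-05) and by 0.18 with DZNep. In scr it had fallen by 0.41 against DMSO (edgeR adjusted p = 7.29e-06), and siEzh2 set against DMSO gave -0.04 (edgeR adjusted p = 0.693). Jade1, a subunit of a histone acetyltransferase complex, was 0.20 higher with GSK126 but fell by 0.17 with siEzh2 (edgeR adjusted p = 0.0387) and by 0.55 with DZNep. Smoc1, a secreted calcium-binding protein gene, fell by 0.90 with DZNep. With siEzh2, 2 of the 3 were called, 1 was in the fit of the compared groups alone and on leaving out scr replicate 1 or 2 or siEzh2 replicate 1 or 2, and 0 were with DMSO as the control. Of all genes, 26.1% were called with siEzh2 against scr, 14.2% with siEzh2 against DMSO and 62.3% with DZNep.

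Factors that maintain imprints were also measured. Of 15 tested, DZNep raised 5 and lowered 3, where 62.3% of all genes were called, so their share was near that of the whole table. Zfp57, the zinc-finger protein that holds methylation at control regions, was at 3.53 ± 0.261 CPM in DMSO and 1.74 ± 0.255 in DZNep (SD, n = 3), and fell by 1.04 on the log2 scale (edgeR adjusted p = 2.48e-06). The maintenance methyltransferase gene Dnmt1 rose by 0.24 and the de novo methyltransferase gene Dnmt3b by 0.49. GSK126 changed 1 of the 15, Dnmt3a, which was 0.20 higher. With siEzh2, Dnmt3a fell by 0.21 (edgeR adjusted p = 0.0056) and Tet3, a dioxygenase gene of DNA demethylation, by 0.29 (edgeR adjusted p = 0.0242), 2 of 15 where 26.1% of all genes were called. Both were higher in scr than in DMSO, by 0.21 (edgeR adjusted p = 0.00737) and 0.32 (edgeR adjusted p = 0.0137), and siEzh2 set against DMSO gave -0.01 for Dnmt3a (edgeR adjusted p = 0.953) and 0.03 for Tet3 (edgeR adjusted p = 0.859). Against DMSO, Trim28, the co-repressor bound by ZFP57, fell by 0.30 (edgeR adjusted p = 0.003), and Uhrf1, which recruits DNMT1, by 0.24 (edgeR adjusted p = 0.0441). Leaving out scr replicate 1 or 3 or siEzh2 replicate 2 left 1 of the 15 called, and library totals gave 4. No count filter gave 5, out of all listed factors with any count.

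Of the 6 core subunits of PRC2, siEzh2 lowered 3: Ezh2, Suz12 by 0.14 on the log2 scale (edgeR adjusted p = 0.0358) and the histone-binding subunit Rbbp4 by 0.20 (edgeR adjusted p = 0.00661). Ezh2 is the target of the knockdown, and 26.1% of all genes were called with siEzh2. Set against DMSO, Ezh2 was still 5.22-fold lower (edgeR adjusted p = 2.27e-17), Suz12 was at 0.01 (edgeR adjusted p = 0.932), Rbbp4 at -0.12 (edgeR adjusted p = 0.15), and Rbbp7 fell by 0.20 (edgeR adjusted p = 0.0125). With GSK126 Ezh2 was not called (log2 0.05, edgeR adjusted p = 0.569), while Rbbp4 and Rbbp7 fell by 0.17 and 0.22. With DZNep all 6 were called, Ezh2 and Suz12 lower and the other 4 higher, where 62.3% of all genes were called. Ezh2 fell by 0.41 (edgeR adjusted p = 3.67e-07) and Eed, the subunit that reads the methyl mark, rose by 0.44 (edgeR adjusted p = 6.3e-07). The count of 6 with DZNep became 2 in the fit of the compared groups alone or without DMSO replicate 1. It was 3 without DZNep replicate 3 or without the count filter.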

How the data were processed

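Read counts per gene in 15 libraries (5 groups of 3) were deposited by the authors as 1 raw count table. Per the submitters' processing notes, the tools were STAR and featureCounts and the build GRCm38; the annotation, strand setting and tool versions were not given in the sources used here. Of 46078 identifiers, 45229 matched GENCODE M21, and the other 849 held 0.0588% of counts. The 8 genes, the other gene lists and the marker lists were chosen with earlier results of these data known. Named genes are the 8, the 4 nearest tested genes on each side of each and any that overlap it, listed genes that were called, and the 3 genes most like each of the 8.

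Genes that reached 0.234 CPM (10 counts at the median library) in fewer than 3 libraries were left out (filterByExpr), leaving 15152. Libraries were scaled by TMM (factors 0.977 to 1.055), and 1 model of all 15 was fitted with edgeR 4.0.16 (R 4.3.3), robust quasi-likelihood, no covariate, common dispersion 0.00409. P-values were Benjamini-Hochberg adjusted over all genes tested, with a threshold of 0.05. The standard error is the log2 fold change over the root of F. Levels are CPM on TMM-scaled totals, and log ratios used a prior count of 0.5. The script was tested on simulated data. Ratios to neighbours were compared by exact permutation over libraries. Alternatives were DESeq2 1.42.0, other scalings, no count filter, only the groups compared, a replicate block, each library left out and, added after seeing the data, DMSO as control of siEzh2. Replicates differed by more than counting noise (chi-square per degree of freedom 5.77 to 37.8), so none was a repeat deposit.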

Additional observations from a re-analysis of the deposited data

Results flagged for a closer look

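In 4 cases every library moved one way under one treatment and every library the opposite way under another, relative to its control. These differences were not tested, and groups of 3 are too small for the check on single libraries. How many of all genes tested moved in this way was not counted, so nothing is read from the count of 4. Over all genes, 12.7%, 62.3% and 26.1% were called with GSK126, DZNep and siEzh2. Mest was higher with GSK126 and lower with siEzh2, a difference of -2.37 between the log2 effects. It was also higher with DZNep and lower with siEzh2, a difference of -1.43. Sgce was higher with GSK126 and lower with DZNep, which share their DMSO libraries, a difference of -0.88. It was higher with siEzh2 and lower with DZNep, a difference of 0.82.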

How the results depend on the processing

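Of 680 values of the 8 genes recomputed under another setting, 636 kept their direction and their side of the threshold, 14 lost the call, 9 gained it and 21 changed sign. Fitting only the compared groups gave 1135 genes called with GSK126 in place of 1923, and leaving out 1 library gave 1201 to 2498, with 1249 without DMSO replicate 3 and 1251, 1201 and 1216 without GSK126 replicates 1, 2 and 3. With DMSO as the control of siEzh2, 2148 genes were called in place of 3953, and Cdkn1c changed sign to 0.64. With the second neighbour in the ratio, the Mest difference against Cep41 was 1.28 with GSK126, 2.12 with DZNep and -0.66 with siEzh2; that of Peg10 against Ppp1r9a was 3.95 with DZNep and 0.52 with siEzh2; that of Sgce against Col1a2 was -0.68 with GSK126, -1.57 with DZNep and 0.31 with siEzh2. Library totals turned Plagl1 in scr against DMSO to 0.032. The other changes of sign were near 0, on leaving out a library: with GSK126 Impact ran from -0.088 to 0.027 and Cdkn1c from -0.16 to 0.13; with DZNep Impact ran from -0.092 to 0.024, and against GSK126 from -0.079 to 0.032; in scr against DMSO Mest ran from -0.021 to 0.15, Plagl1 from -0.071 to 0.044, Peg10 from -0.17 to 0.0084 and Phlda2 from -0.32 to 0.076. The cause was not tested. Same-numbered libraries did not deviate together (r from -0.162 to 0.208 over 30 pairs, against -0.144 to 0.222 over 60 others; 6 of 15 correlated best with their own number). With a replicate block, 1937, 9451 and 3965 genes were called with GSK126, DZNep and siEzh2 and 3904 in scr against DMSO, and no call on the 8 genes changed. Depth limits Cdkn1c and Phlda2, with 1 to 130 and 4 to 35 counts a library.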

Other observations

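The genes whose log2 CPM followed each imprinted gene most closely over the 15 libraries were not imprinted genes of the list. These correlations are descriptions: the libraries form 5 groups, so they mainly follow the group means. For Mest they were Prokr1, a prokineticin receptor gene (Pearson r = 0.946), Syp, which codes for the vesicle protein synaptophysin (r = 0.933), and Cxxc4 (r = 0.929). For Peg10 they were Mme, the membrane metallo-endopeptidase gene (r = 0.985), Sfxn5 (r = 0.984) and Tnfrsf10b, a TRAIL receptor gene (r = 0.983). For Sgce they were Filip1 (r = 0.986), Fer, a tyrosine kinase gene, and Mta3, a NuRD subunit gene (r = 0.985 for both). For Cdkn1c they were Angptl6 (r = 0.978), Arpc5l (r = 0.971) and Gtpbp2 (r = 0.97), for Plagl1 Purb (r = 0.924), for Peg13 Cyfip2 (r = 0.914), for Impact Scn8a (r = 0.889) and for Phlda2 Ube4b (r = 0.854).

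Among the 8 genes themselves, Peg10 ran against Cdkn1c (r = -0.872), Plagl1 (r = -0.865) and its neighbour Sgce (r = -0.831), while Plagl1 and Cdkn1c ran together (r = 0.745). In DZNep, Peg10 was at its highest (745 CPM) and the other 3 were at their lowest, Cdkn1c with 2, 2 and 1 counts. With GSK126 and with siEzh2, Peg10 and Sgce were both higher than their controls. Correlations without the DZNep libraries were not computed. Mest was only loosely tied to Peg10 (r = 0.336) and Sgce (r = -0.122).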
